A study of Mus musculus with 9 samples.

Results

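Of 46 genes of the mitotic machinery, 42 were measured in sorted CD8+ T cells, and 14 of them were higher in Tsc1-/- than in WT cells while 0 were lower. Among all genes tested, 0.971% were higher and 0.310% lower. The count of 14 depended on the processing and on single arrays, from 0 to 26 in other settings, as given below. The set holds the cyclins and kinases that drive mitosis, the spindle checkpoint, the chromosomal passenger complex, the kinetochore, spindle and midzone proteins, and the anaphase promoting complex (APC). Of the kinesin motors it holds Cenpe alone. It was listed by gene name, with earlier results of these data known, so its counts beside all genes are descriptive. Each gene was read by the probe set that is annotated to that gene alone and had the highest mean over all 9 arrays. Ccnb1, Nuf2, Anapc2 and Anapc10 had no such probe set and were not analysed here, which left 42 of the 17097 genes tested.

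Cells enter mitosis when Cdk1, bound to cyclin A or cyclin B, is switched on together with the Polo and Aurora kinases. The kinetochore then ties each chromosome to the spindle, the checkpoint holds the APC back until every kinetochore is attached, and the APC at last marks cyclin B and securin for destruction. Most transcripts of this machinery rise in late S phase and G2 and fall after division, so their level in a population follows how many cells are cycling, whereas the core subunits of the APC are made through the whole cycle. Antigen-specific CD8+ T cells divide fast during an infection and stop as the response contracts. In bulk RNA a smaller share of dividing cells and less transcript per dividing cell cannot be told apart.

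The samples were OVA-specific CD8+ T cells sorted from the spleen of C57BL/6 mice at day 9 after infection with Listeria monocytogenes, and OVA is a model antigen. All mice carried floxed Tsc1 alleles. The 4 WT samples lacked cre, and the 5 Tsc1-/- samples carried cre driven by Granzyme B, a gene that activated T cells switch on, so deletion follows activation. Carriage of cre coincided with genotype in every sample, so its own effect and that of Tsc1 loss cannot be told apart. One expression array was run per sample, and whether each sample came from its own mouse is not stated in the sources used here. Levels are log2 expression values, on which a difference of 1 is a doubling, and all differences are Tsc1-/- minus WT. Each gene was tested with limma, a linear model that shares the estimate of variance across genes, and "rose" is used only for an adjusted p under 0.05 over all 17097 genes.

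Tsc1, whose product restrains the growth kinase mTORC1, read 7.77, 7.61, 7.71 and 7.56 in WT replicates 1 to 4 and 7.43, 7.27, 7.51, 7.44 and 7.35 in Tsc1-/- replicates 1 to 5. The genotypes did not overlap, Tsc1-/- being the lower (difference -0.26, exact permutation p = 0.00794, adjusted p = 0.114), and whether its probes lie in the floxed exons was not analysed here. CD8 T cell markers matched the sort, since the mean of Cd3e, Cd3d, Cd3g, Cd8a and Cd8b1 was 11.62 to 11.68 in WT and 11.63 to 11.67 in Tsc1-/-. Most markers of other spleen cells read lower in Tsc1-/- without passing the test, with 8 of 9 macrophage and monocyte markers and 5 of 6 B cell markers negative and 0 of them past the threshold. The mean macrophage marker level was 6.998, 7.15, 6.98 and 6.29 in WT replicates 1 to 4 and 6.11 to 6.56 in Tsc1-/-, and the mean B cell marker level was 7.15, 7.31, 7.11 and 6.49 in WT and 6.27 to 6.72 in Tsc1-/-. The mean of 4 erythroid precursor markers overlapped between the genotypes (6.80 to 7.27 in WT and 6.61 to 7.76 in Tsc1-/-). These precursors are another dividing cell type of the spleen. The 4 markers went both ways, with Tfrc at 0.46, Klf1 at 0.10, Alas2 at -0.33 and Hba-a1 at -0.61, none past the threshold. The means of neutrophil and dendritic cell markers overlapped too. The mean of 2 NK cell markers was 5.77 to 6.03 in WT and 5.43 to 5.70 in Tsc1-/-.

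Many genes of this machinery share short promoter motifs, and 7 members that rose are shown, 5 as examples that hold both of the motifs below, and Nusap1 and Anapc13 because they hold neither. Of the 10 members that rose and had a promoter window, 7 held both motifs, Cenpe held CCAAT alone and these 2 held none. The cell cycle genes homology region (CHR), written TTTGAA or TTCAAA on the other strand, is known as the site of the MuvB complexes that silence such genes in resting cells and activate them in G2. The box CCAAT, or ATTGG on the other strand, is known as the site of NF-Y. The lines below give the 120 bases just before the annotated start, 5′ to 3′ on the gene's strand, from RefSeq promoters of build GRCm38.p6, with every match to either motif in capitals.
Cdk1: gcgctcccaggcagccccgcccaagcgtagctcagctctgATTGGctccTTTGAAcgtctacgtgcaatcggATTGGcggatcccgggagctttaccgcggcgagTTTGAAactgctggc
Top2a: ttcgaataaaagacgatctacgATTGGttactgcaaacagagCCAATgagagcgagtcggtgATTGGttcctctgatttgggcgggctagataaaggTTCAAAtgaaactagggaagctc
Ube2c: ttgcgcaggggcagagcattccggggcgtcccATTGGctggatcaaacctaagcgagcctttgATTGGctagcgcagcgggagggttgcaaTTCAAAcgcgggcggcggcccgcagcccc
Ect2: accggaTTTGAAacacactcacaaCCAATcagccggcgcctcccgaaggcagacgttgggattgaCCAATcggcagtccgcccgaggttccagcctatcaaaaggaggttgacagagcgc
Depdc1a: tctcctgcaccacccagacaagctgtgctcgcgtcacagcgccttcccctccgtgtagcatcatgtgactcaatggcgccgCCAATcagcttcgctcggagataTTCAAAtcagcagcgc
Nusap1: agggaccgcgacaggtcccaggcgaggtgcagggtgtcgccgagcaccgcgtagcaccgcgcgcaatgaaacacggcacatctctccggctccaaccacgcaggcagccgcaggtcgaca
Anapc13: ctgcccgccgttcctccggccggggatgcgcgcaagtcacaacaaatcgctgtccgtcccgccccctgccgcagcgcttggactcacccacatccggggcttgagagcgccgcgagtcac
They lie at chr10:69352913-69353032 (minus strand), chr11:99024190-99024309 (minus strand), chr2:164769809-164769928 (plus strand), chr3:27153879-27153998 (minus strand), chr3:159495313-159495432 (plus strand), chr2:119618178-119618297 (plus strand) and chr9:102626176-102626295 (plus strand), in that order. Within 120 bases of the start, Cdk1 held CHR and CCAAT each on 2 sites, while Nusap1 and Anapc13 held neither there nor in the rest of their windows.

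Promoter windows, from 250 bases before to 50 after the start, were found for 36 of the 42 members and 13605 of all measured genes, with the first listed start taken for each. A CHR match stood in 22 of 30 windows (73.3%) of members other than APC subunits, in 1 of 6 windows of APC subunits and in 13.3% of all windows. A CCAAT match stood in 23 of the same 30 windows (76.7%), in 2 of 6 windows of APC subunits and in 38.4% of all. Both motifs occurred in 20 of 30 windows (66.7%), in 0 of 6 APC subunits and in 5.33% of all. Matches may overlap, as in Cdca8, where a CHR and a CCAAT match share a base. These are letter matches in a fixed window, described without a test.

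Across the 42 members, 40 differences were positive and their median was 0.59, against a median of -0.01 over all genes. The 14 members that rose were Cdk1, Pbk, Aurkb, Incenp, Cdca8, Spc24, Cenpe, Top2a, Nusap1, Ect2, Prc1, Ube2c, Anapc13 and Depdc1a. They were 14 of 42, where 0.971% of all genes rose and 0.310% fell. Every Tsc1-/- array lay above every WT array in 27 of the 42 members, against 5.08% of all genes, and below in 0, against 2.88%. At an adjusted p under 0.1 the count was 26 of 42, against 3.09% of all genes. With the level of macrophage markers as a covariate the count was 0 (15 members at an unadjusted p under 0.05). With that of B cell markers it was also 0 (15 members). In both fits 0 of all 17097 genes passed in either direction, with 1726 and 1639 genes at an unadjusted p under 0.05. The median difference of the members was 0.36 and 0.35, and 37 of 42 were positive in each. The part of other cells in the differences was not tested beyond these fits. The count also fell to 0 without WT replicate 1, without WT replicate 2, and without Tsc1-/- replicate 2, 4 or 5. In these fits 31 to 33 members were higher at an unadjusted p under 0.05. Of all 17097 genes, 2360, 2394, 2795, 2779 and 2554 reached that level, higher and lower together, in the same order. Few genes of any kind passed in those 5 fits, with 1, 2, 6, 21 and 1 of all 17097 genes higher in that order. The members' count was 2 without Tsc1-/- replicate 3, 5 without Tsc1-/- replicate 1, 7 without WT replicate 3 and 23 without WT replicate 4, where 41, 142, 70 and 297 of all genes were higher. The median difference lay between 0.50 and 0.68 in all 9 of these fits.

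**Figure D1:**
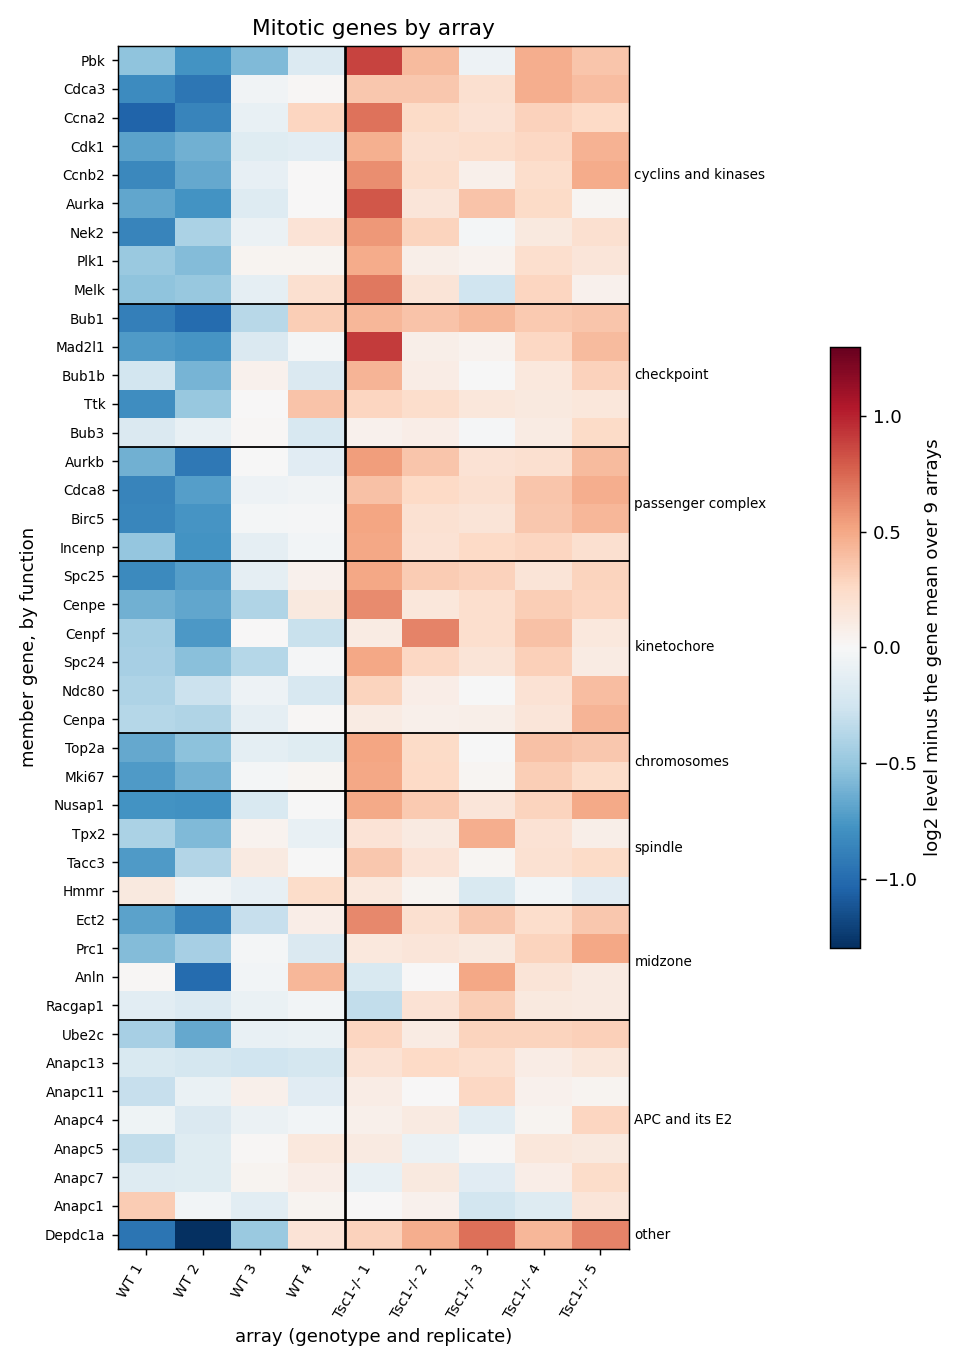
Level of each of the 42 mitotic genes in each array as the log2 deviation from that gene's mean over the 9 arrays (red higher, blue lower), with genes ordered by function and the vertical line between the 4 WT and 5 Tsc1-/- arrays. WT replicates 1 and 2 are the lowest pair in 33 of 42 rows, and the rows of the APC subunits are the palest.

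The cyclins and kinases had a median difference of 0.72 over 9 measured genes, of which 2 rose and all 9 were positive. Of all genes 0.971% rose. Cdk1, the kinase at the centre of mitotic entry, read 7.92, 7.99, 8.46 and 8.48 in WT replicates 1 to 4 and 9.08, 8.83, 8.85, 8.89 and 9.07 in Tsc1-/- replicates 1 to 5. All 5 Tsc1-/- arrays were above all WT arrays, and within WT replicates 1 and 2 were the low ones. Cdk1 rose by 0.73 (SE 0.13, adjusted p = 0.0322), which is 1.66-fold. Pbk, a kinase of mitotic cells, read 6.10, 5.84, 6.05 and 6.44 in WT and 7.49, 7.02, 6.54, 7.09 and 6.97 in Tsc1-/-, and it rose by 0.92 (SE 0.17, adjusted p = 0.0339). The groups did not overlap, but the lowest Tsc1-/- array, replicate 3, was only just above WT replicate 4.

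The other 7 did not pass. The cyclins Ccna2 and Ccnb2, partners of Cdk1, differed by 0.77 (SE 0.23, adjusted p = 0.112) and 0.72 (SE 0.17, adjusted p = 0.0590). Ccna2 overlapped because WT replicate 4, at 9.23, was above 3 of the Tsc1-/- arrays, whereas Ccnb2 did not overlap. Aurka, the Aurora kinase of the spindle poles, differed by 0.72 (SE 0.18, adjusted p = 0.0701) and Cdca3, which helps to remove the Cdk1 inhibitor Wee1, by 0.80 (SE 0.18, adjusted p = 0.0529). Plk1, the Polo kinase, differed by 0.44 and Nek2, a kinase that parts the centrosomes, by 0.52 (adjusted p = 0.133 and 0.163). Melk, a kinase of dividing cells, had the largest p of the group and read 5.83, 5.87, 6.24 and 6.57 in WT and 7.05, 6.52, 6.10, 6.64 and 6.41 in Tsc1-/-. The genotypes overlapped for Melk, whose difference was 0.42 (95% interval 0.01 to 0.82, adjusted p = 0.280).

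None of the 5 checkpoint genes rose, a count that so small a group would also have at the share of all genes (0.971%). All 5 differences were positive, with a median of 0.44. Bub1, the kinase that recruits checkpoint proteins to kinetochores, read 5.37, 5.26, 5.91 and 6.58 in WT and 6.70, 6.64, 6.69, 6.61 and 6.63 in Tsc1-/-. The Tsc1-/- arrays were nearly alike (SD 0.04) and the WT arrays spread widely (SD 0.60), with WT replicate 4 just below the lowest Tsc1-/- array. The difference of Bub1 was 0.87 (SE 0.21, adjusted p = 0.0605). Mad2l1, which holds back the APC activator Cdc20, differed by 0.77 (SE 0.19, adjusted p = 0.0696) without overlap. Bub1b, another part of the inhibitory complex, differed by 0.44 and Bub3, its partner, by 0.21, with overlap in both (adjusted p = 0.109 and 0.207). Ttk, the kinase that starts checkpoint signalling, read 5.69, 6.01, 6.503 and 6.87 in WT and 6.78, 6.72, 6.64, 6.62 and 6.65 in Tsc1-/-. WT replicate 4 was its highest array of all 9, and the difference was 0.41 (95% interval 0.01 to 0.82, adjusted p = 0.281).

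The chromosomal passenger complex corrects faulty attachments and later guides cytokinesis. Of its 4 members 3 rose, each close to the threshold, where 0.971% of all genes rose. Its median difference was 0.75, near the 0.72 of the cyclins and kinases. Its kinase Aurkb read 7.05, 6.75, 7.67 and 7.52 in WT and 8.22, 8.03, 7.87, 7.88 and 8.09 in Tsc1-/-, and rose by 0.77 (SE 0.16, adjusted p = 0.0465). Cdca8, the subunit borealin, read 8.04, 8.19, 8.83 and 8.85 in WT and 9.28, 9.16, 9.10, 9.26 and 9.37 in Tsc1-/-, and rose by 0.76 (SE 0.16, adjusted p = 0.0438). In both genes WT replicates 3 and 4 lay between the low WT pair and the Tsc1-/- arrays. The scaffold Incenp read 7.84, 7.56, 8.23 and 8.31 in WT and 8.84, 8.53, 8.6004, 8.62 and 8.55 in Tsc1-/-, and rose by 0.64 (SE 0.14, adjusted p = 0.0485). Birc5, the subunit survivin, read 8.12, 8.20, 8.94 and 8.95 in WT and 9.47, 9.16, 9.13, 9.32 and 9.40 in Tsc1-/-, and missed the threshold at 0.74 (SE 0.17, adjusted p = 0.0559). All 4 lay higher in Tsc1-/- without overlap, against 5.08% of all genes.

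All 6 measured kinetochore genes were positive and separated the genotypes, with a median difference of 0.64, and 2 of them rose. Of all genes, 5.08% lay higher in every Tsc1-/- array than in every WT array, and 0.971% rose. Spc24, of the Ndc80 complex that grips microtubules, read 7.74, 7.63, 7.80 and 8.15 in WT and 8.67, 8.44, 8.34, 8.48 and 8.27 in Tsc1-/-, and rose by 0.61 (SE 0.11, adjusted p = 0.0359). Cenpe, a motor that brings chromosomes to the spindle equator, read 7.08, 7.03, 7.32 and 7.84 in WT and 8.32, 7.85, 7.93, 8.02 and 7.99 in Tsc1-/-, and rose by 0.70 (SE 0.15, adjusted p = 0.0485). For Cenpe the gap between WT replicate 4 and Tsc1-/- replicate 2 was narrow. Spc25 and Ndc80, of the same complex as Spc24, differed by 0.72 and 0.43 (adjusted p = 0.0529 and 0.0559). Cenpf, of the outer kinetochore, differed by 0.67 (adjusted p = 0.0516). Cenpa, the histone variant that marks centromeres, read 8.05, 8.03, 8.30 and 8.43 in WT and 8.52, 8.48, 8.50, 8.57 and 8.86 in Tsc1-/-. Its Tsc1-/- replicate 5 stood above the other arrays, and the difference was 0.39 (95% interval 0.15 to 0.62, adjusted p = 0.0977).

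Of the chromosome genes, Top2a, the topoisomerase that untangles sister chromatids, read 8.24, 8.37, 8.77 and 8.75 in WT and 9.42, 9.15, 8.90, 9.29 and 9.25 in Tsc1-/-, and rose by 0.67 (SE 0.13, adjusted p = 0.0375). Mki67, the Ki-67 protein that coats mitotic chromosomes, read 10.14, 10.26, 10.85 and 10.90 in WT and 11.38, 11.14, 10.90, 11.20 and 11.12 in Tsc1-/-. The groups of Mki67 only just did not overlap, with WT replicate 4 and Tsc1-/- replicate 3 both at 10.90, and the difference did not pass at 0.61 (SE 0.16, adjusted p = 0.0751).

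Among 4 spindle genes 1 rose, against 0.971% of all genes, and the median difference was 0.46. Nusap1, which bundles spindle microtubules, read 7.68, 7.66, 8.26 and 8.45 in WT and 8.94, 8.79, 8.61, 8.74 and 8.95 in Tsc1-/-, and rose by 0.80 (SE 0.16, adjusted p = 0.0371). Tpx2, which activates Aurka on the spindle, and Tacc3, which stabilises kinetochore fibres, differed by 0.46 and 0.45 (adjusted p = 0.0903 and 0.144). Hmmr, a spindle protein also known as a hyaluronan receptor, read 7.92, 7.74, 7.68 and 8.03 in WT and 7.92, 7.82, 7.59, 7.76 and 7.64 in Tsc1-/- and was 1 of 2 members with a negative difference, -0.10 (95% interval -0.31 to 0.12, adjusted p = 0.668). The genotypes of Hmmr overlapped, and its other probe sets differed from this one, as given below.

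At the midzone, 2 of 4 genes rose, against 0.971% of all genes, and the median difference was 0.41. Ect2, which activates RhoA to start the cleavage furrow, read 6.27, 6.10, 6.66 and 7.04 in WT and 7.59, 7.17, 7.31, 7.19 and 7.31 in Tsc1-/-, and rose by 0.79 (SE 0.17, adjusted p = 0.0426). Prc1, which crosslinks the midzone microtubules, read 7.09, 7.21, 7.62 and 7.45 in WT and 7.78, 7.80, 7.77, 7.93 and 8.14 in Tsc1-/-, and rose by 0.55 (SE 0.12, adjusted p = 0.0485). Both genes separated the genotypes. Racgap1, the partner of Ect2, differed by 0.19 (adjusted p = 0.411), with Tsc1-/- replicate 1 the lowest of its 9 arrays. Anln, the furrow scaffold anillin, read 5.93, 4.91, 5.88 and 6.34 in WT and 5.72, 5.92, 6.42, 6.08 and 6.03 in Tsc1-/-. WT replicate 2, at 4.91, was far under the rest, the genotypes overlapped, and the difference was 0.26 (95% interval -0.24 to 0.77, adjusted p = 0.606). Depdc1a, a gene of dividing cells placed in no group, had the largest difference of all members. It read 5.01, 4.66, 5.47 and 6.13 in WT and 6.26, 6.43, 6.67, 6.40 and 6.60 in Tsc1-/-, and rose by 1.15 (SE 0.23, adjusted p = 0.0375), which is 2.22-fold.

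**Figure D2:**
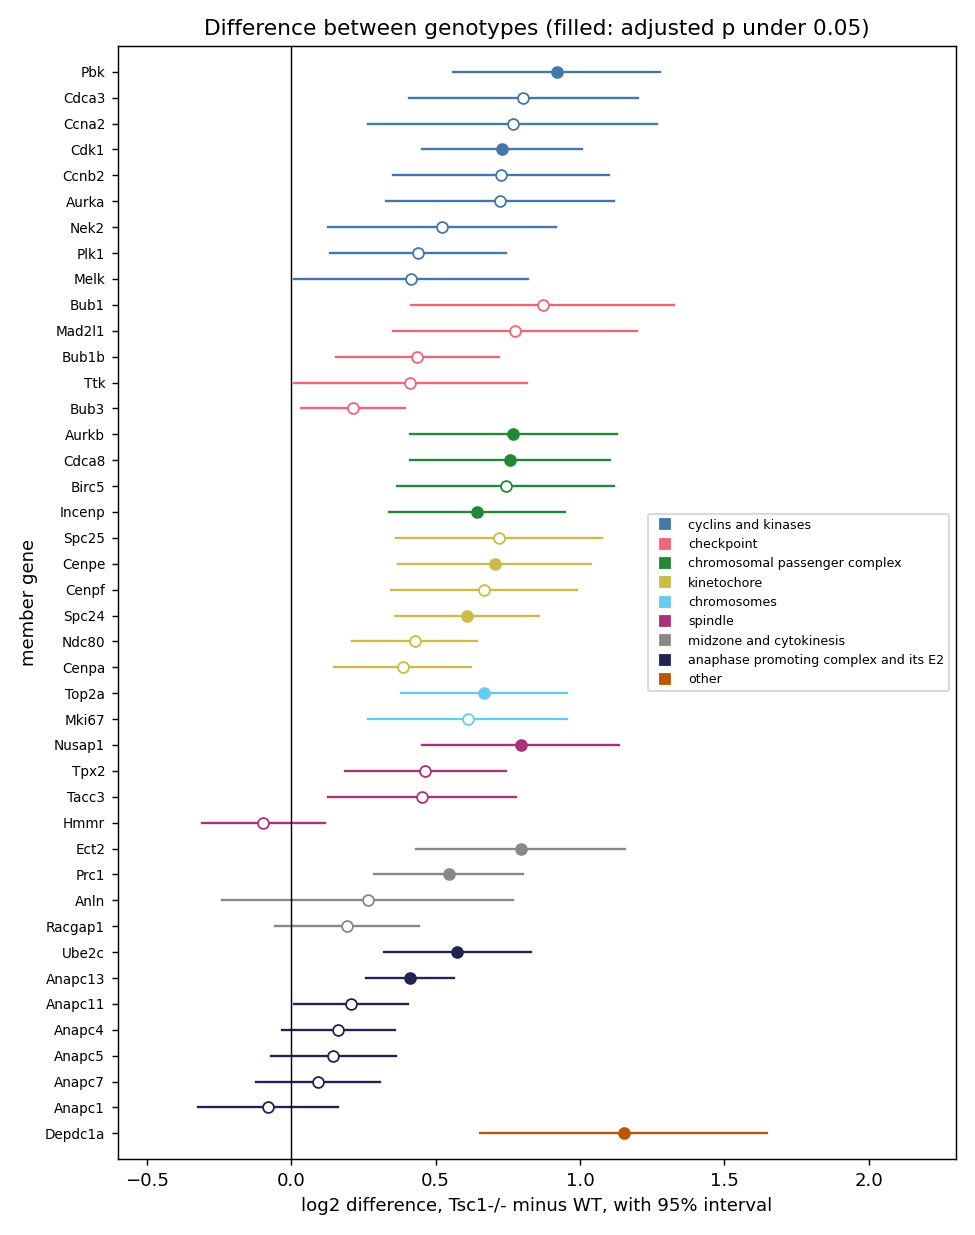
Difference of each of the 42 genes (Tsc1-/- minus WT, log2) with its 95% interval from limma, coloured by function, with filled points for an adjusted p under 0.05. The points of the cyclins, passenger complex and kinetochore lie between 0.39 and 0.92, while 5 of the 6 APC subunits lie at 0.21 or lower.

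The APC subunits differed least. Of 6 measured subunits 1 rose and their median difference was 0.15, against 0.66 over the 36 other members, of which 13 rose. Over all genes 0.971% rose. The spread of WT arrays was smaller too, with a median SD of 0.14 for the subunits, 0.37 for the other members and 0.14 over all genes. In the Tsc1-/- arrays the median SD was 0.13, 0.16 and 0.15 in the same order. The difference between the subunits and the other members was described and not tested.

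The subunit that rose was Anapc13, a small structural subunit, and its arrays had another shape. Anapc13 read 9.52, 9.49, 9.46 and 9.498 in WT and 9.91, 9.98, 9.94, 9.81 and 9.87 in Tsc1-/-, with a WT SD of only 0.03 and no low WT pair. It rose by 0.41 (SE 0.07, adjusted p = 0.0316), which is 1.33-fold. Anapc1, the scaffold of the complex, read 8.31, 7.95, 7.85 and 8.02 in WT and 7.99, 8.05, 7.75, 7.82 and 8.15 in Tsc1-/-. Its highest array was WT replicate 1 and its difference was -0.08 (95% interval -0.32 to 0.16, adjusted p = 0.766). Anapc11, the RING subunit that recruits the E2 enzyme, differed by 0.21 (95% interval 0.00896 to 0.41). Anapc4, Anapc5 and Anapc7, scaffold subunits, differed by 0.16, 0.15 and 0.09, and the adjusted p of these 4 subunits was between 0.271 and 0.688. Ube2c, the E2 enzyme that the APC uses to start ubiquitin chains, showed the low pair of WT arrays that the cyclins showed. It read 9.71, 9.48, 10.05 and 10.05 in WT and 10.42, 10.25, 10.43, 10.43 and 10.45 in Tsc1-/-, and rose by 0.58 (SE 0.12, adjusted p = 0.0390).

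**Figure D3:**
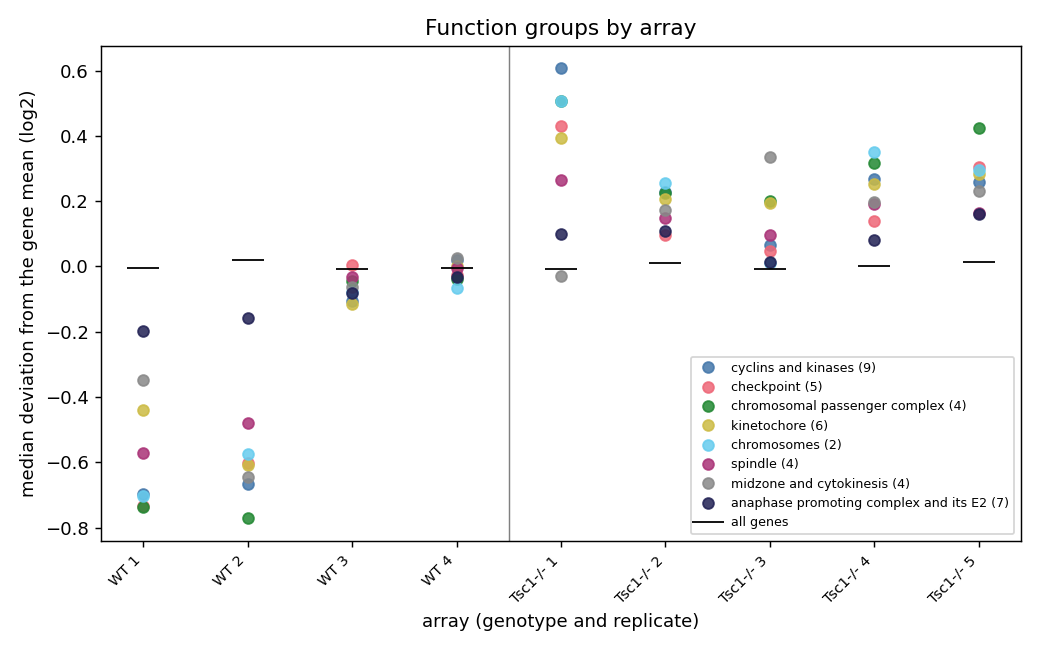
Median over the genes of each function group of the log2 deviation from the gene mean, for each array, with the number of genes in brackets, Depdc1a left out and short black lines for all genes. WT replicates 1 and 2 lie between -0.77 and -0.35 for every plotted group other than the APC and its E2 (-0.20 and -0.16), and WT replicates 3 and 4 lie between -0.12 and 0.03.

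The members moved together within WT as well as between genotypes. The median deviation of the 42 members from their gene means was -0.54, -0.61, -0.09 and -0.01 in WT replicates 1 to 4 and 0.40, 0.19, 0.16, 0.23 and 0.27 in Tsc1-/- replicates 1 to 5. WT replicates 1 and 2 were thus far below the rest, while WT replicates 3 and 4 lay nearer to the Tsc1-/- arrays than to that pair. WT replicates 1 and 2 were the lowest pair of all 9 arrays in 33 of 42 members (78.6%), against 6.35% of all genes. Tsc1-/- replicate 1 was the highest array in 21 of 42, against 14.4% of all genes, and a WT array was the highest in 3 of 42, against 45.7% of all genes. The SD among WT arrays was larger than that among Tsc1-/- arrays in 35 of 42 members (83.3%), against 47.8% of all genes. The mean macrophage marker level in WT replicates 1 to 4 was 6.998, 7.15, 6.98 and 6.29, and its part in the spread among WT arrays was not tested.

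**Figure D4:**
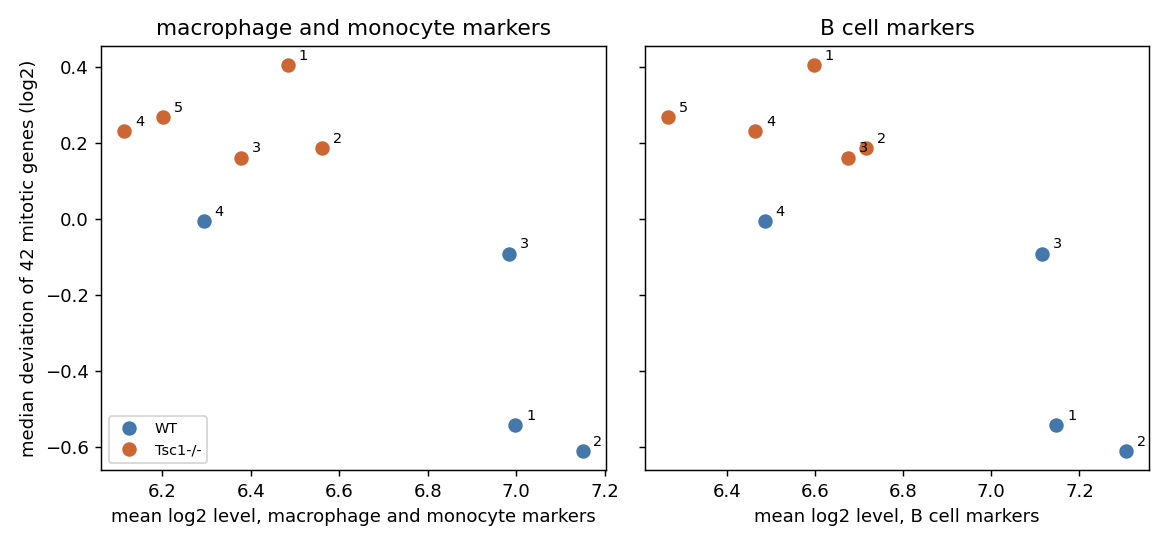
Median log2 deviation of the 42 mitotic genes against the mean log2 level of macrophage and monocyte markers (left) and of B cell markers (right), 1 point per array, blue for WT and orange for Tsc1-/-, with the replicate number beside it. WT replicate 4 has marker levels (6.29 and 6.49) within the Tsc1-/- range and lies below all 5 Tsc1-/- arrays, at -0.01 against 0.16 to 0.40. Of the WT arrays it has the lowest levels of both markers. It is also the highest WT array in 30 of 42 members (71.4%), against 25.9% of all genes. The part of other cells was not tested beyond the covariate fits.

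Other probe sets of the same genes gave a further reading of the same RNA. Of the 42 members 24 had more than 1 probe set, with 38 further probe sets in all, and 31 of these differences were positive. All probe sets were positive in 17 of the 24. The further probe set of Ccna2 separated the genotypes, where the one used did not, and differed by 0.82 (SE 0.14; exact permutation p = 0.00794). Further probe sets of Tpx2 (0.59) and Prc1 (0.61) also separated the genotypes, as did the ones used, and so did both further ones of Anapc5 (0.28 and 0.24), where the one used overlapped. Hmmr was read by 5 probe sets. The brightest, of a type that can bind other transcripts, gave -0.10. The other 4 gave 0.54, which separated the genotypes, 0.44, 0.23 and 0.01. The mean of Hmmr over probe sets thus differed by 0.23 (limma adjusted p = 0.229, against 0.229 to 0.900 over all alternatives). Racgap1 likewise differed by 0.37 in its further probe set against 0.19. Incenp (0.46 and -0.12), Top2a (0.28 and -0.02) and Nusap1 (0.09) had smaller differences in further probe sets, although the brightest of each rose. That of Incenp at 0.46 still separated the genotypes. Further ones of Bub3 (-0.08), Cenpa (-0.02) and Cenpf (-0.02) were negative. The further sets of Nusap1, and of Top2a and Cenpf at -0.02, had WT means of 4.61, 5.08 and 5.27. The median gene mean was 6.34. Those of Incenp at -0.12, Bub3 at -0.08 and Cenpa at -0.02 had WT means of 6.33, 7.22 and 7.51. Probe sets of types that can bind other transcripts were used for 10 members. Besides Hmmr these included Pbk, Aurkb, Cdca8 and Prc1, which rose. Where probe sets lie in the transcripts was not analysed here.

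**Figure D5:**
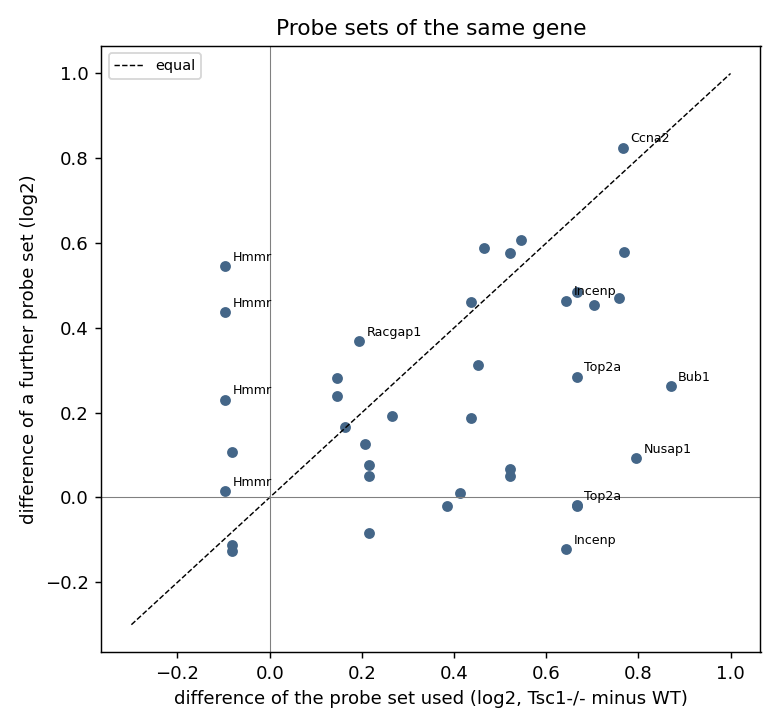
Difference of each of 38 further probe sets (vertical axis) against that of the probe set used for the same gene (horizontal axis), both Tsc1-/- minus WT on the log2 scale, with a dashed line of equality and some genes named. Most points lie below the line, while those of Hmmr and Racgap1 are among those above it.

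Genes of the same pathway outside the set were counted in the same fit. Of 68 listed, 64 were measured, 61 were positive with a median difference of 0.36, and 7 rose while 0 fell, where 0.971% of all genes rose and 0.310% fell. Those that rose were Cenpw (0.80) and Cenpp (0.41) of the inner kinetochore, Dlgap5 (0.66) of the spindle, Ncapg (0.79) of condensin, Cdca2 (0.55), which targets a phosphatase to chromosomes, Fbxo5 (0.65), an inhibitor of the APC, and Anapc15 (0.44), an APC subunit that helps to release the checkpoint. Their adjusted p lay between 0.0219 and 0.0452. Of 10 further subunits, activators and other partners of the APC, the 2 that rose were Anapc15 and Fbxo5, and Cdc20, the activator that the checkpoint restrains, differed by 0.36 (adjusted p = 0.118). Condensin had 1 of 8 past the threshold with a median of 0.56, and the inner and outer kinetochore 2 of 24 with a median of 0.37. Of 6 genes of the switch into mitosis 0 rose, a count that so small a group would also have at the share of all genes, with Wee1, the kinase that inhibits Cdk1, at 0.39 (adjusted p = 0.170). The same holds for 5 regulators that drive transcription of mitotic genes, of which 0 rose, with Foxm1 at 0.37 (adjusted p = 0.0513), Mybl2 at 0.74 (adjusted p = 0.0830) and Lin9, a MuvB subunit, at 0.27 (adjusted p = 0.117).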

How the data were processed

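RNA from 9 samples was labelled from 12 ng of total RNA with NuGEN kits and measured on 1 array each, per the labels' protocols. The deposited values are the authors' log2 expression levels. The submitters' processing notes name RMA and Partek 6.5, and the sources used here give no options or filters. Since RMA gives all arrays like distributions, a shift of most transcripts at once is hidden. Array medians over all probe sets lay between 6.03 and 6.05 in WT and between 5.97 and 6.02 in Tsc1-/-, so they did not overlap.

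Of 45037 probe sets 28898 had 1 annotated gene, 551 had several and were not used, and 15588 were unnamed. Symbols were updated through Entrez identifiers with RefSeq GRCm38.p6 (28689 matched). Each of 17097 genes was read by its probe set with the highest mean. The fit used limma 3.58.1 in R 4.3.3 (lmFit, then eBayes), two-sided, genotype the only term, Benjamini-Hochberg over all genes. Exact permutation tests used all 126 assignments of 9 arrays to 4 and 5, with a smallest p of 0.00794. Spread between samples, possibly technical, is all that the p-values measure, and the number of arrays limits precision. On data simulated for Tsc1-/- against WT over 17097 genes, 65 of 100 changes of 0.5 and 100 of 100 changes of 1 were recovered, with 9 false calls. The simulated noise was drawn independently for each gene, whereas the members moved together within WT. Their median SE was 0.15, against 0.10 over all genes, so these shares need not hold for the members.

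The members and lists were chosen with earlier results of these data known. Array values were given for each member past the threshold and for those with the smallest and largest p of each function group. Pathway genes past the threshold were to be named, up to 6 by smallest p, and the last, Cenpp, was added after its value was seen, as were Cdc20, Wee1, Foxm1, Mybl2 and Lin9. The promoter motifs and the shown promoters were chosen after the values were seen. Same-numbered WT and Tsc1-/- arrays did not deviate together (correlations -0.10, 0.09, -0.07 and 0.02 over genes). Alternatives were another summary of probe sets, probe sets not joined, dim genes left out, other normalizations, variance models, array weights, a replicate block, marker levels as covariates, a looser threshold and each array left out. Figures used Python 3.11.15.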

Additional observations from a re-analysis of the deposited data

Results flagged for a closer look

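In 84 sets of replicates (42 members in each genotype) 4 arrays stood far from the others of their genotype, by a gap to the nearest array that was large against the whole range. Chance gives about 1 in 20 sets. Ccna2 in Tsc1-/- replicate 1 read 9.66 against 9.14 to 9.25 in the other 4. Cenpa in Tsc1-/- replicate 5 read 8.86 against 8.48 to 8.57. Tpx2 in Tsc1-/- replicate 3 read 8.37 against 7.98 to 8.09. Ube2c in Tsc1-/- replicate 2 read 10.25 against 10.42 to 10.45, the only one of the 4 that was low.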

How the results depend on the processing

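The count of members that rose, 14 in the fit reported, moved by more than 1.5 times in most settings, always with 0 members lower. It was 26 with dim genes left out (41 members tested), 26 at an adjusted p under 0.1, 24 with a variance trend and robust estimation, 24 with array weights, 8 with probe sets not joined, 2 after quantile normalization and 0 with the macrophage or the B cell marker level as a covariate. It was 10 when probe sets of a gene were averaged, 21 after median centring, and 20 without WT replicate 4 and Tsc1-/- replicate 1 together, a pair left out as an alternative added after seeing the data. Without 1 array it ranged from 0 to 23. With the replicate block, which drops Tsc1-/- replicate 5, it was 0 (32 members higher at an unadjusted p under 0.05). The labels do not say what a shared number means, so whether the numbers pair the samples was not settled. All genes higher and lower were 166 and 53 in the fit reported, 543 and 151 with dim genes left out, and 509 and 171 with the variance trend. They were 340 and 125 with array weights, 338 and 63 after median centring, and 43 and 34 after quantile normalization. With the block or either marker covariate they were 0 and 0. Genes at an unadjusted p under 0.05, higher and lower together, were 2354 with the block, 1726 for macrophages and 1639 for B cells. The cause of these shifts was not tested. The median difference of the members, 0.59, was 0.36 with macrophage and 0.35 with B cell markers as a covariate and moved by less than the spread between replicates (0.17) in the others, 0.44 to 0.68.

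Of the 14 members, Cdk1 and Pbk stayed past the threshold in 12 of 21 other settings each and Aurkb, Cenpe and Incenp in 7 each. The 21 include the looser threshold on the fit reported, which all 14 pass by definition. No member that rose changed sign. Signs changed for Hmmr with the mean of probe sets (0.23), Anapc1 without WT replicate 1 (0.013, against -0.14 without WT replicate 3), Anln without WT replicate 2 (-0.019, up to 0.54 without WT replicate 4 and Tsc1-/- replicate 1), and Anln, Anapc5 and Anapc7 with macrophage (-0.26, -0.051 and -0.049) or B cell markers (-0.19, -0.048 and -0.075) as a covariate, none of them past the threshold.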
